A study of Rattus norvegicus with 15 samples.

Results

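Slc2a2, Kcnj11, Abcc8, Gpd2, Mdh1 and Got1 encode the glucose transporter, the ATP-sensitive potassium (KATP) channel and enzymes of the NADH shuttles through which pancreatic beta cells sense glucose. These 6 genes were taken by symbol from count tables that list 17055 genes, and all 6 were counted and passed the filter on low counts in each of the 5 comparisons below. The cells were islet cells of 10-day-old Sprague-Dawley rats, dispersed and transfected with either a mimic of miR-17-5p, a short synthetic RNA that adds this microRNA, or a control mimic. The groups were 4 miR-17-5p RISC libraries, 3 control RISC libraries, 5 miR-17-5p mRNA libraries and 3 control mRNA libraries. RISC libraries hold RNA that came down with Ago2, the Argonaute protein of the RNA-induced silencing complex, and mRNA libraries hold polyadenylated RNA. Dispersed islets contain beta cells, other endocrine cells and non-endocrine cells, and the labels give no sorting. Per the labels these are biological replicates, yet titles and descriptions number them differently, so a p-value here reflects variation among the libraries that could be technical.

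Glucose enters rodent beta cells through GLUT2, the product of Slc2a2, and its breakdown raises ATP. ATP closes the KATP channel, which is built from a pore subunit encoded by Kcnj11 and a sulfonylurea receptor subunit encoded by Abcc8, and the membrane then depolarises, opens calcium channels and releases insulin. Beta cells make little lactate and instead pass the electrons of glycolytic NADH into mitochondria through the glycerol phosphate shuttle, in which Gpd2 is the mitochondrial enzyme, and the malate-aspartate shuttle, in which Mdh1 and Got1 are the cytosolic enzymes.

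The added microRNA is shown here with the members of its family that carry the same seed, bases 2 to 8, in capitals, because a mimic brings this seed into the cells. Of 693 mature rat microRNA names in RefSeq, build GRCr8, 5 share the seed, from 6 loci. miR-17-5p lies at chr15:98587861-98587883 on the plus strand, and an identical mature sequence lies at chrX:137343615-137343637 on the minus strand.
rno-miR-17-5p: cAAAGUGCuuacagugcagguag
rno-miR-20a-5p: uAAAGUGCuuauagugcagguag
rno-miR-20b-5p: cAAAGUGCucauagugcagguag
rno-miR-93-5p: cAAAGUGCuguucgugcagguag
rno-miR-106b-5p: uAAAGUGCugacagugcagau
Outside the seed the other members differ from miR-17-5p at 2 to 4 bases of the shared length. The counts below cover genes and not mature microRNAs, so the amount of miR-17-5p in each library was not measured here.

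The RISC libraries held 4185123 to 13420403 counts and the mRNA libraries 3379456 to 21056240. Levels are given as CPM, counts scaled to library size, on 1 scale of trimmed mean of M values (TMM) over all 15 libraries. Ins1 and Ins2, the insulin genes, took 0.947% to 1.97% of the counts in RISC libraries and 26.2% to 41.8% in mRNA libraries, and Rn45s, the ribosomal RNA precursor, took 23.6% to 42.6% and 3.13% to 12.8%. Among genes reaching 100 counts in some library of their group, 966 of 8449 had at most 3 counts in another library of the miR-17-5p RISC group, against 4070 of 7803 in the control RISC group. All 12 beta cell markers that the tables list had counts in each of the 4 groups. Stellate cell and fibroblast markers spanned 22298 to 25324 summed CPM in RISC libraries of miR-17-5p cells against 4078 to 9208 CPM in control RISC libraries, and 21599 to 47267 CPM in miR-17-5p mRNA libraries against 11168 to 19928 CPM in control mRNA libraries, with Col1a2 at 0 in all.

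In poly(A) RNA, Kcnj11 fell with miR-17-5p and was the 1 of the 6 genes to pass the test. Across all genes 429 of 11077, or 3.87%, were called at an adjusted p under 0.05 in edgeR's quasi-likelihood test with Benjamini-Hochberg adjustment, 3.11% of all genes tested higher and 0.767% lower, so 1 of 6 rests on a single gene. Kcnj11, Abcc8, Slc2a2, Mdh1 and Gpd2 had negative log2 fold changes and Got1 a positive one. The median over the 6 genes was -0.35, beside 0.01 over all genes tested.

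Kcnj11, the pore of the channel, had 300, 253, 220, 270 and 267 CPM in miR-17-5p mRNA libraries 1, 2, 4, 5 and 6, against 383, 398 and 347 CPM in control mRNA libraries 1, 2 and 3. All 5 miR-17-5p libraries lay below all 3 control libraries. The share of all genes tested that separate in this way in mRNA was not counted, for this gene or those below. The means were 262 ± 28.9 CPM (SD, n = 5) with miR-17-5p and 376 ± 26.2 CPM (SD, n = 3) in control cells, and the log2 fold change was -0.52 ± 0.12 (SE, edgeR adjusted p = 0.0337). Only 10.4% of genes tested had a lower log2 fold change. The call was lost without control mRNA library 1, 2 or 3, or without miR-17-5p mRNA library 4, 5 or 6, with edgeR adjusted p between 0.0690 and 0.162. It held without miR-17-5p mRNA library 1 (edgeR adjusted p = 0.0137) or 2 (0.0458), and the log2 fold change lay between -0.57 and -0.46 in all 8 of these fits.

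Abcc8, the regulatory subunit that binds sulfonylurea drugs, had 626, 470, 457, 524 and 569 CPM in miR-17-5p mRNA libraries 1, 2, 4, 5 and 6, against 698, 687 and 752 CPM in control mRNA libraries 1, 2 and 3. Here too every miR-17-5p library lay below every control library, again without a count over all genes beside it. Its log2 fold change was -0.43 ± 0.13 (SE, edgeR adjusted p = 0.0970), short of the threshold. Without miR-17-5p mRNA library 1 it was -0.49 and passed (edgeR adjusted p = 0.0331), and without control mRNA library 3 it was -0.37 (edgeR adjusted p = 0.290). DESeq2's Wald test and limma-voom called Kcnj11 and Abcc8, with adjusted p of 0.0142 and 0.0211 for Abcc8, and limma-voom also called Mdh1 (adjusted p = 0.0424).

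**Figure D1:**
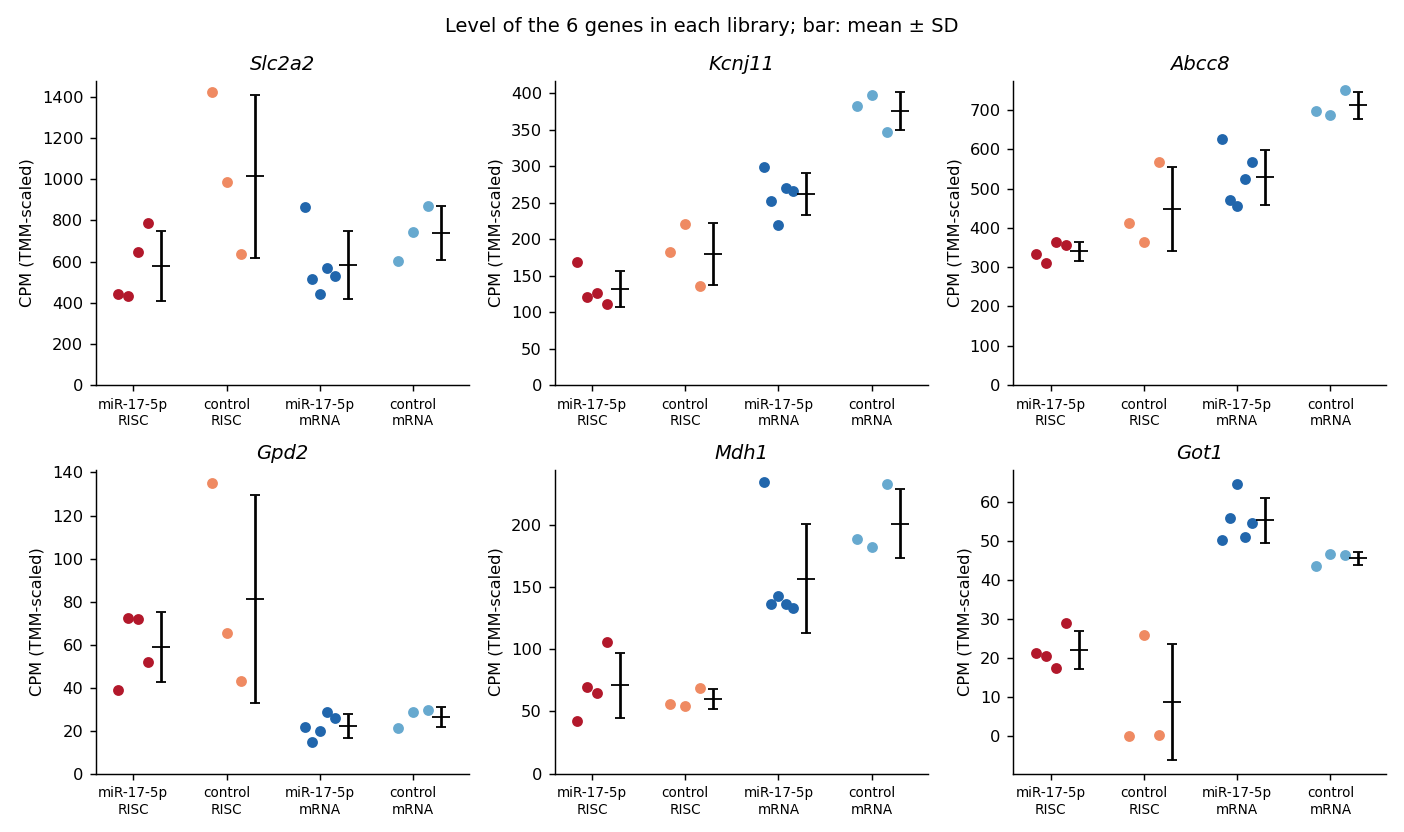
Level of each gene in CPM on the shared TMM scale (vertical axes, linear) in the miR-17-5p RISC, control RISC, miR-17-5p mRNA and control mRNA libraries, 1 point per library, with bars for the mean and SD. Kcnj11 in mRNA spans 220 to 300 CPM with miR-17-5p and 347 to 398 CPM in control cells, without overlap, and Got1 in control RISC is at 0, 25.9 and 0.159 CPM.

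Both subunits are needed in a fixed proportion for an assembled channel, and in RefSeq their genes are next to each other on chromosome 1. Counted in the same library, the log2 ratio of Kcnj11 to Abcc8 counts was -1.06, -0.89, -1.05, -0.96 and -1.09 in miR-17-5p mRNA libraries 1, 2, 4, 5 and 6, against -0.87, -0.79 and -1.11 in control mRNA libraries 1, 2 and 3. The ranges overlapped. The means were -1.01 ± 0.08 (SD, n = 5) and -0.92 ± 0.17 (SD, n = 3), a difference of -0.09 with an exact two-sided permutation p of 0.357, or 0.476 adjusted over the 4 ratio tests. With 56 splits of these libraries the smallest p possible is 0.0357.

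Slc2a2, the glucose transporter, had 867, 514, 443, 567 and 531 CPM in miR-17-5p mRNA libraries 1, 2, 4, 5 and 6, against 604, 744 and 870 CPM in control mRNA libraries 1, 2 and 3. Library 1 stood inside the control range and the other 4 lay below it. The log2 fold change was -0.34 ± 0.20 (SE, edgeR adjusted p = 0.391). Without miR-17-5p mRNA library 1 it was -0.52 (edgeR adjusted p = 0.0540), and without control mRNA library 3 it was -0.19 (edgeR adjusted p = 0.759).

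Gpd2, the mitochondrial glycerol phosphate dehydrogenase, was counted at 21.7, 14.6, 20.0, 28.5 and 26.1 CPM in miR-17-5p mRNA libraries 1, 2, 4, 5 and 6, against 21.0, 28.9 and 29.5 CPM in control mRNA libraries 1, 2 and 3. The groups overlapped, with a log2 fold change of -0.25 ± 0.24 (SE, edgeR adjusted p = 0.635).

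Mdh1, the cytosolic malate dehydrogenase, had 234, 136, 142, 136 and 133 CPM in miR-17-5p mRNA libraries 1, 2, 4, 5 and 6, against 188, 182 and 232 CPM in control mRNA libraries 1, 2 and 3. Library 1 lay above all controls and the other 4 below all of them. The log2 fold change was -0.35 ± 0.18 (SE, edgeR adjusted p = 0.328), and without control mRNA library 3 it was -0.23 (edgeR adjusted p = 0.682). Without miR-17-5p mRNA library 1 Mdh1 fell by 0.54 on the log2 scale (edgeR adjusted p = 0.0207). Insulin took 41.8% of the counts in that library and 26.2% to 34.2% in the other miR-17-5p mRNA libraries, and its part in the result was not tested.

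Got1, the cytosolic aspartate aminotransferase and the partner of Mdh1 in the malate-aspartate shuttle, had 50.3, 55.8, 64.7, 51.0 and 54.5 CPM in miR-17-5p mRNA libraries 1, 2, 4, 5 and 6, against 43.6, 46.7 and 46.3 CPM in control mRNA libraries 1, 2 and 3. All 5 miR-17-5p libraries lay above all 3 control libraries, by a smaller margin than those of Kcnj11 and again without a count over all genes. The log2 fold change of 0.28 ± 0.15 (SE, edgeR adjusted p = 0.327) did not pass. In RefSeq, build GRCr8, Got1 overlaps the pseudogene Trit1-ps1. Whether reads of that overlap entered the Got1 counts, which were made on build rn5, was not examined.

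The cytosolic pair of the shuttle had fold changes of opposite sign, neither of which passed, and the ratio of their counts was tested directly. The log2 ratio of Mdh1 to Got1 was 2.22, 1.29, 1.14, 1.41 and 1.29 in miR-17-5p mRNA libraries 1, 2, 4, 5 and 6, against 2.11, 1.96 and 2.32 in control mRNA libraries 1, 2 and 3. Library 1 lay among the controls and the other 4 below them. The difference of the means was -0.66, with an exact two-sided permutation p of 0.107, or 0.429 adjusted over the 4 ratio tests, so it was not distinguished from the spread between libraries.

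**Figure D2:**
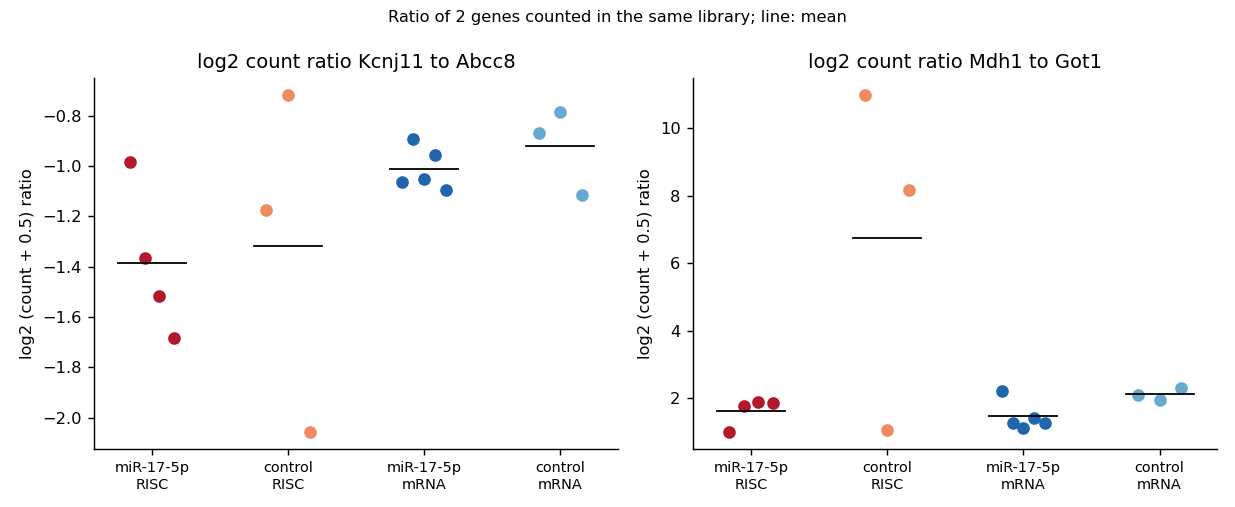
Log2 ratio of Kcnj11 to Abcc8 counts (left) and of Mdh1 to Got1 counts (right), each gene with 0.5 added, in the miR-17-5p RISC, control RISC, miR-17-5p mRNA and control mRNA libraries, 1 point per library and a line at the mean. The Mdh1 to Got1 ratio of miR-17-5p mRNA library 1, 2.22, lies among the control mRNA libraries at 1.96 to 2.32, and the control RISC points at 8.17 and 11.0 come from libraries with 1 and 0 Got1 counts.

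Markers of other cell types were also called in this comparison. In mRNA libraries 10 of 14 stellate cell and fibroblast markers tested rose with miR-17-5p, 0 of the 12 beta cell markers were called, and the median log2 fold change of the beta cell markers was -0.59. Lower with miR-17-5p were 2 of 9 alpha, delta and PP cell markers (median log2 fold change -0.57), 2 of 9 endothelial, 1 of 8 duct and 3 of 3 red blood cell markers (median -2.40), and 0 of 10 macrophage and leukocyte and 0 of 6 acinar markers were called. Beta cell markers summed to 298589 to 558019 CPM with miR-17-5p and to 425475 to 503496 CPM in control cells. In bulk libraries fewer beta cells and less of these RNAs per beta cell cannot be told apart, and the part of the mixture in the fall of Kcnj11 was not tested.

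The levels were also set against the mean log2 CPM of 8 beta cell transcription factors (Pdx1, Nkx6-1, Nkx2-2, Neurod1, Isl1, Pax6, Rfx6 and Foxa2) in the same library, as a description with no test. Whether their mean follows beta cells alone or other endocrine cells as well was not tested, so these are not levels per beta cell. That mean was 6.38 ± 0.43 in miR-17-5p mRNA libraries (SD, n = 5) and 7.03 ± 0.19 in control mRNA libraries (SD, n = 3). Relative to it, Kcnj11 was 1.65 ± 0.34 with miR-17-5p and 1.53 ± 0.25 in control cells, so the difference of 0.13 had the opposite sign to the fold change. Without miR-17-5p mRNA library 2 that difference was -0.02, and without control mRNA library 3 it was 0.0028, so its sign rests on single libraries. Abcc8 differed by 0.21, Mdh1 by 0.26, Slc2a2 by 0.29, Gpd2 by 0.38 and Got1 by 0.92 on the same log2 scale. Without miR-17-5p mRNA library 2 these were 0.10, 0.15, 0.17, 0.36 and 0.76, and without control mRNA library 2 Mdh1 was at 0.15. In RISC libraries the same differences were -0.59 for Slc2a2, -0.25 for Kcnj11, -0.18 for Abcc8, -0.15 for Gpd2, 0.37 for Mdh1 and 3.62 for Got1. Single libraries turned the sign of Abcc8 and Gpd2 there. With 1 library left out, Mdh1 lay between 0.0011 and 0.83 and Got1 between 2.28 and 5.43. The Got1 value rests on control RISC libraries 1 and 3, which had 0 and 1 Got1 counts. In mRNA, Got1 had the widest difference of the 6 genes, -0.58 ± 0.53 with miR-17-5p and -1.51 ± 0.14 in control cells.

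**Figure D3:**
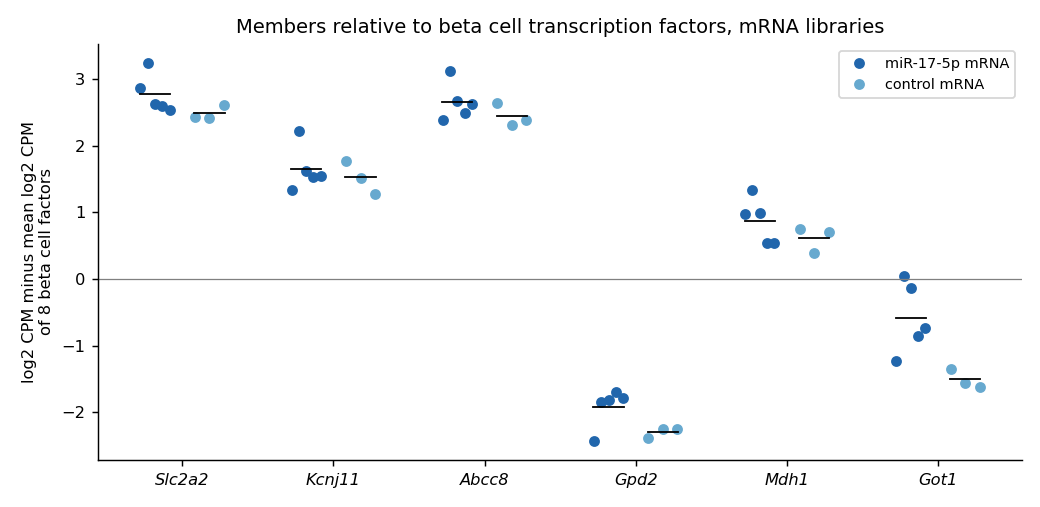
Log2 CPM of each gene minus the mean log2 CPM of 8 beta cell transcription factors in the same library (vertical axis), for miR-17-5p mRNA and control mRNA libraries, 1 point per library and a line at the mean. Kcnj11 averages 1.65 and 1.53, while Got1 averages -0.58 and -1.51, in miR-17-5p and control libraries.

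In RNA bound to Ago2, 0 of the 6 genes were called between miR-17-5p and control cells, where edgeR's test called 35 of 9443 genes, or 0.371%. At an unadjusted p under 0.05 there was 1, Slc2a2. DESeq2's Wald test and limma-voom also called 0 of the 6, though the Wald test gave Got1 no adjusted p. The median log2 fold change of the 6 was -0.40, beside 0.27 over all genes tested.

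Slc2a2 had 445, 431, 648 and 786 CPM in miR-17-5p RISC libraries 2, 4, 5 and 6, against 1427, 984 and 635 CPM in control RISC libraries 1, 2 and 3. The groups overlapped at control library 3, and the log2 fold change was -0.79 ± 0.31 (SE, edgeR adjusted p = 0.182). Among the 6 genes it was the most negative in this comparison, and 15.6% of all genes tested had a lower one.

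Kcnj11 was counted at 168, 120, 127 and 111 CPM in miR-17-5p RISC libraries 2, 4, 5 and 6, against 183, 220 and 136 CPM in control RISC libraries 1, 2 and 3. Abcc8 had 333, 310, 363 and 357 CPM in the same miR-17-5p RISC libraries, against 413, 363 and 567 CPM in the control RISC libraries. In both genes 3 of the 4 miR-17-5p libraries lay below all controls. The log2 fold changes were -0.43 ± 0.27 for Kcnj11 and -0.37 ± 0.21 for Abcc8 (SE, edgeR adjusted p = 0.544 and 0.448). Their count ratio differed by -0.07 on the log2 scale, with an exact two-sided permutation p of 0.914, where 35 splits allow no p under 0.0571.

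Gpd2 had 38.8, 72.2, 71.9 and 52.1 CPM in miR-17-5p RISC libraries 2, 4, 5 and 6, against 135, 65.3 and 42.9 CPM in control RISC libraries 1, 2 and 3. Of the 4 miR-17-5p libraries 3 lay within the control range and 1 below it. Its log2 fold change was -0.44 ± 0.49 (SE, edgeR adjusted p = 0.877), and without control RISC library 1 it was 0.09.

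Mdh1 had 42.7, 70.0, 64.6 and 106 CPM in miR-17-5p RISC libraries 2, 4, 5 and 6, against 55.6, 54.7 and 68.9 CPM in control RISC libraries 1, 2 and 3. The groups overlapped and the log2 fold change was 0.27 ± 0.43 (SE, edgeR adjusted p = 0.952), equal to the median over all genes to the digits given.

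Got1 could not be compared in RISC with any precision. It had 323, 232, 187 and 207 counts in miR-17-5p RISC libraries 2, 4, 5 and 6, against 0, 240 and 1 counts in control RISC libraries 1, 2 and 3. In CPM these were 21.2, 20.4, 17.5 and 29.0 against 0, 25.9 and 0.159, and 3 counts, the limit that a count of 0 allows, correspond to 0.167 CPM in control RISC library 1. The log2 fold change was 1.34 with an SE of 2.03 (edgeR adjusted p = 0.944). Without control RISC library 2, the only one of its group with Got1 above the floor, the fit gave 8.28 (edgeR adjusted p = 0.0404). Got1 is 1 of the 4070 genes described above with 3 counts or fewer in a control RISC library and at least 100 in another, so this gap is shared with many genes of these libraries. On the same counts the log2 ratio of Mdh1 to Got1 differed by -5.10 (exact two-sided permutation p = 0.229, or 0.457 adjusted over the 4 ratio tests).

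The test of whether the effect of miR-17-5p differed between RISC and mRNA called 0 of the 6 genes, with 0 at an unadjusted p under 0.05, where edgeR called 1533 of 11418 genes, or 13.4%. DESeq2's Wald test and limma-voom also called 0 of the 6, and here too the Wald test gave Got1 no adjusted p. The difference in log2 fold change, RISC minus mRNA, was 0.07 ± 0.26 for Kcnj11 and 0.03 ± 0.22 for Abcc8 (SE), and both turned negative, to -0.06 and -0.11, with DESeq2 size factors. It was -0.48 ± 0.41 for Slc2a2, -0.21 ± 0.59 for Gpd2, 0.60 ± 0.39 for Mdh1 and 1.06 ± 1.68 for Got1, beside a median of 0.40 over all genes. Without control RISC library 2 Got1 was called at 8.39 (edgeR adjusted p = 9.02e-06), and there the other control RISC libraries held 0 and 1 Got1 counts.

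**Figure D4:**
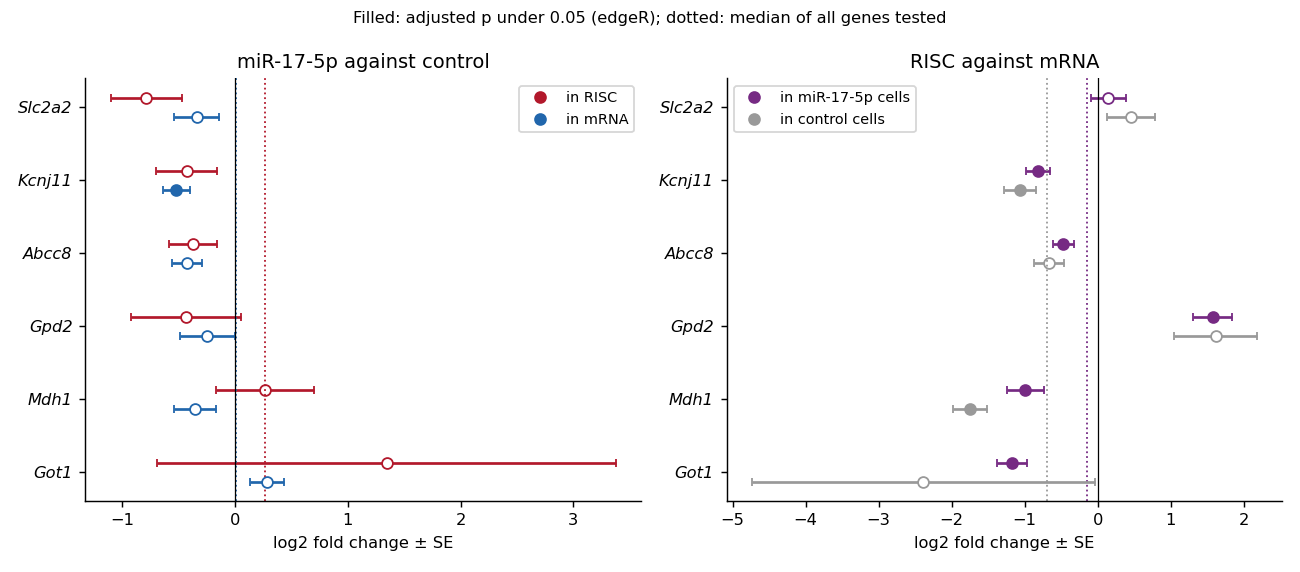
Log2 fold change ± SE from edgeR (horizontal axes) of miR-17-5p against control in RISC and in mRNA (left), and of RISC against mRNA in miR-17-5p and in control cells (right), for the 6 genes. Filled points passed an adjusted p of 0.05 and dotted lines mark the median of all genes tested. On the left only Kcnj11 in mRNA (-0.52) is filled, and on the right Gpd2 lies at 1.57 and 1.62.

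The clearest differences among the 6 genes were between library types. Within miR-17-5p cells 5 of the 6 differed between RISC and mRNA libraries and within control cells 2 of the 6, where 43.5% of 10871 genes and 28.2% of 10170 genes were called. The background is high, so a call alone says little about these genes. Over all genes tested the median log2 fold change was -0.15 in miR-17-5p cells and -0.69 in control cells, and 46% and 37.5% were positive. Within each condition Gpd2 was higher in every RISC library than in every mRNA library, and Kcnj11, Abcc8, Mdh1 and Got1 were lower. The share of all genes with no such overlap was not counted, so this separation cannot be read as a trait of these genes. Abcc8 in control cells, at -0.67, lay beside the median of all genes. The comparisons within miR-17-5p and within control cells share no library. Insulin took a smaller share of RISC than of mRNA counts, as given above, and every RISC to mRNA value is relative to that composition.

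Gpd2 averaged 58.8 ± 16.3 CPM in RISC (SD, n = 4) and 22.2 ± 5.41 CPM in mRNA libraries of miR-17-5p cells (SD, n = 5). In control cells it averaged 81.1 ± 48.2 CPM in RISC and 26.5 ± 4.74 CPM in mRNA libraries (SD, n = 3 each). The lowest RISC library of the 7 had 38.8 CPM and the highest mRNA library of the 8 had 29.5 CPM. The log2 fold change of RISC against mRNA was 1.57 ± 0.27 in miR-17-5p cells (SE, edgeR adjusted p = 5.86e-04) and 1.62 ± 0.57 in control cells (SE, edgeR adjusted p = 0.0954). It exceeded that of 90.5% and 89.7% of genes, the highest ranks of the 6. Slc2a2 had a log2 fold change that exceeded that of 58.0% and 71.1% of genes in miR-17-5p and control cells, that of Abcc8 42.2% and 50.2%, that of Kcnj11 34.5% and 43.6%, that of Mdh1 30.8% and 34.7%, and that of Got1 27.5% and 29.2%. Without control RISC library 3 Gpd2 in control cells was at 1.92 and passed (edgeR adjusted p = 0.0244). That was the 1 of 6 fits with 1 library left out to pass, over a range of 1.03 to 1.92 (edgeR adjusted p 0.0244 to 0.302).

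Mdh1 averaged 70.8 ± 26.3 CPM in miR-17-5p RISC and 156 ± 43.7 CPM in miR-17-5p mRNA libraries (SD, n = 4 and 5), and 59.7 ± 7.95 CPM in control RISC and 201 ± 27.4 CPM in control mRNA libraries (SD, n = 3 each). Its log2 fold change of RISC against mRNA was -0.99 ± 0.26 in miR-17-5p cells and -1.75 ± 0.23 in control cells (SE, edgeR adjusted p = 0.00809 and 0.00829). No RISC library reached the lowest mRNA library. Got1 had a log2 fold change of -1.17 ± 0.20 in miR-17-5p cells (SE, edgeR adjusted p = 6.22e-04). In control cells it was -2.39 ± 2.35 (SE, edgeR adjusted p = 0.616), on the 3 uneven counts given above. Without control RISC library 2 it was -9.34 (edgeR adjusted p = 0.0115), over a range of -9.34 to -1.80 with 1 library left out (edgeR adjusted p 0.0115 to 0.803).

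Kcnj11 averaged 132 ± 25.3 CPM in miR-17-5p RISC and 262 ± 28.9 CPM in miR-17-5p mRNA libraries (SD, n = 4 and 5), and 180 ± 42.2 CPM in control RISC and 376 ± 26.2 CPM in control mRNA libraries (SD, n = 3 each). The log2 fold change was -0.82 ± 0.16 in miR-17-5p cells and -1.06 ± 0.22 in control cells (SE, edgeR adjusted p = 0.00175 and 0.0156). The call in control cells was lost without control mRNA library 1, 2 or 3 (edgeR adjusted p 0.0525 to 0.0762).

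Abcc8 averaged 341 ± 24.4 CPM in miR-17-5p RISC and 529 ± 70.2 CPM in miR-17-5p mRNA libraries (SD, n = 4 and 5), with a log2 fold change of -0.47 ± 0.14 (SE, edgeR adjusted p = 0.0187). Without miR-17-5p mRNA library 6 this missed the threshold (edgeR adjusted p = 0.0505). In control cells it averaged 448 ± 106 CPM in RISC and 712 ± 34.8 CPM in mRNA libraries (SD, n = 3 each), at -0.67 ± 0.20 (SE, edgeR adjusted p = 0.0621). Without control RISC library 3 it was -0.88 and passed (edgeR adjusted p = 0.0120). That was the 1 of 6 fits with 1 library left out to pass, over a range of -0.88 to -0.59 (edgeR adjusted p 0.0120 to 0.170).

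Slc2a2 was the 1 gene of the 6 not called between library types in either condition. It averaged 577 ± 171 CPM in miR-17-5p RISC and 584 ± 164 CPM in miR-17-5p mRNA libraries (SD, n = 4 and 5), and 1015 ± 397 CPM in control RISC and 739 ± 133 CPM in control mRNA libraries (SD, n = 3 each). The log2 fold changes were 0.15 ± 0.23 and 0.46 ± 0.33 in miR-17-5p and control cells (SE, edgeR adjusted p = 0.650 and 0.450), and the libraries overlapped in both.

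By mean level, Kcnj11 and Abcc8 shared 1 order: lowest in miR-17-5p RISC, then control RISC, then miR-17-5p mRNA, and highest in control mRNA. The 2 RISC groups, neighbours in this order, overlapped in both genes, while in Kcnj11 the highest control RISC library and the lowest miR-17-5p mRNA library met at 220 CPM and the mRNA groups did not overlap. In Abcc8 the highest control RISC library, 567 CPM, lay inside the miR-17-5p mRNA range. Mdh1 and Got1 were higher in both mRNA groups than in both RISC groups, and Gpd2 the reverse. Slc2a2 ran from miR-17-5p RISC, through miR-17-5p mRNA and control mRNA, to control RISC, with overlap between each pair of neighbours.

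Other genes of the pathway were taken from 5 lists of 43 genes, of which 39 are listed in the tables. In mRNA 1 of 37 tested was called between miR-17-5p and control cells, beside the 3.87% of all genes. It was Cacnb3, a regulatory subunit of voltage-gated calcium channels, at 185 ± 25.4 CPM with miR-17-5p (SD, n = 5) and 263 ± 12.9 CPM in control cells (SD, n = 3), a log2 fold change of -0.50 ± 0.13 (SE, edgeR adjusted p = 0.0453). That call was lost without control mRNA library 1, 2 or 3 or miR-17-5p mRNA library 2, 4, 5 or 6. Without control mRNA library 1 the 1 pathway gene that passed was a higher one, without each of the others 0 passed, and without miR-17-5p mRNA library 1 there were 7. DESeq2's Wald test called 5 pathway genes and limma-voom 8. In RISC 0 of 35 were called by edgeR's test, beside 0.371% of all genes, with 3 at an unadjusted p under 0.05 (Pfkfb2, Ldha and Me3). There DESeq2's Wald test called 1 and limma-voom 0, and edgeR called 3 without control RISC library 2 and 1 without control RISC library 3.

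Among 12 other channel genes of beta cell excitability, 9 had negative log2 fold changes in mRNA, with a median of -0.45, and 1 was called, Cacnb3. Kcnk16, the potassium channel TALK-1, had -0.42 ± 0.15 and Cacna1d, the pore of a calcium channel, -0.50 ± 0.17 (SE, edgeR adjusted p = 0.141 and 0.136). Of 5 genes of glucose entry and phosphorylation 0 were called by edgeR, with 2 at an unadjusted p under 0.05. Slc2a1, the transporter GLUT1, had 0.46 ± 0.43 and Pfkfb2, which makes a regulator of glycolysis, -0.16 ± 0.19 (SE, edgeR adjusted p = 0.619 and 0.695).

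The mitochondrial partners of the malate-aspartate shuttle were near 0 in the same comparison. Mdh2 had a log2 fold change of 0.09 ± 0.13 and Got2 of 0.04 ± 0.12 (SE, edgeR adjusted p = 0.756 and 0.891), and edgeR called 0 of 5 other shuttle genes, with 0 at an unadjusted p under 0.05. Of 11 genes of pyruvate and citrate cycling edgeR called 0, with 5 at an unadjusted p under 0.05 (Acly, Glud1, Me3, Mpc2 and Pc). Acly, ATP citrate lyase, had a log2 fold change of -0.50 ± 0.16 and Glud1, glutamate dehydrogenase, of -0.28 ± 0.12 (SE, edgeR adjusted p = 0.118 and 0.234). Lactate production and export, which beta cells keep low, had 4 positive log2 fold changes of 4, with 0 called by edgeR and 1 at an unadjusted p under 0.05, Ldha. Ldha, a lactate dehydrogenase subunit, was at 0.86 ± 0.38 and Slc16a3, a lactate exporter, at 0.90 ± 0.53 (SE, edgeR adjusted p = 0.253 and 0.408). Fibroblast markers rose in these libraries as given above, and their part in these values was not tested.

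Between RISC and mRNA, 22 of 37 pathway genes were called in miR-17-5p cells, 12 higher and 10 lower in RISC, beside 21.7% of all genes higher and 21.8% lower. Several channel subunits stood on the higher side with Gpd2: Cacna2d1 had a log2 fold change of 2.30 ± 0.16, Kcnma1 of 2.02 ± 0.30 and Cacnb2 of 1.68 ± 0.18 (SE, edgeR adjusted p = 1.52e-06, 2.12e-04 and 1.60e-05). Also on the higher side were Cacna1c (1.08), Cacna1d (0.88), Hk2 (1.52), Pfkfb2 (0.64), Idh1 (1.61), Me1 (0.69), Ldhb (1.40) and Slc16a1 (1.73). Of 5 other shuttle genes tested 3 were called, all lower in RISC like Mdh1 and Got1, and 1 of the 5 had a positive log2 fold change. Mdh2 had -1.97 ± 0.28, Got2 -0.91 ± 0.21 and Slc25a11, the oxoglutarate carrier of the malate-aspartate shuttle, -2.55 ± 0.82 (SE, edgeR adjusted p = 1.50e-04, 0.00461 and 0.0249). Also on the lower side were Cacnb3 (-0.88), Kcnh6 (-1.13), Kcnk16 (-1.89), Cs (-0.42), Mpc1 (-1.48) and Slc25a1 (-1.04).

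In control cells 8 of 36 pathway genes were called between RISC and mRNA, 4 higher and 4 lower in RISC, beside 5.96% of all genes higher and 22.3% lower. The count was 1 without control mRNA library 1, 2 without control mRNA library 2 and 14 without control RISC library 3. Cacna1c (1.30), Cacna2d1 (1.63), Idh1 (2.22) and Ldhb (2.61) were higher, each of them also higher in miR-17-5p cells. Cacnb3 (-1.09) and Kcnh6 (-1.02) were lower in both conditions. Of the 5 other shuttle genes 0 were called in control cells, with 5 negative log2 fold changes and a median of -1.91, beside -0.69 over all genes. Me3 averaged 0.0532 CPM in control RISC and 12.6 CPM in control mRNA libraries, and Mpc2 had 0 counts in control RISC libraries 1, 2 and 3, where 3 counts correspond to 0.167, 0.324 and 0.478 CPM, and averaged 9.73 CPM in control mRNA libraries. Me3 was also the 1 of 37 pathway genes called in the difference of the miR-17-5p effect between RISC and mRNA, where 13.4% of all genes were called. Without control RISC library 1, 2 or 3 that count was 3, 7 or 5, and without miR-17-5p RISC library 2 or 5 it was 2.

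**Figure D5:**
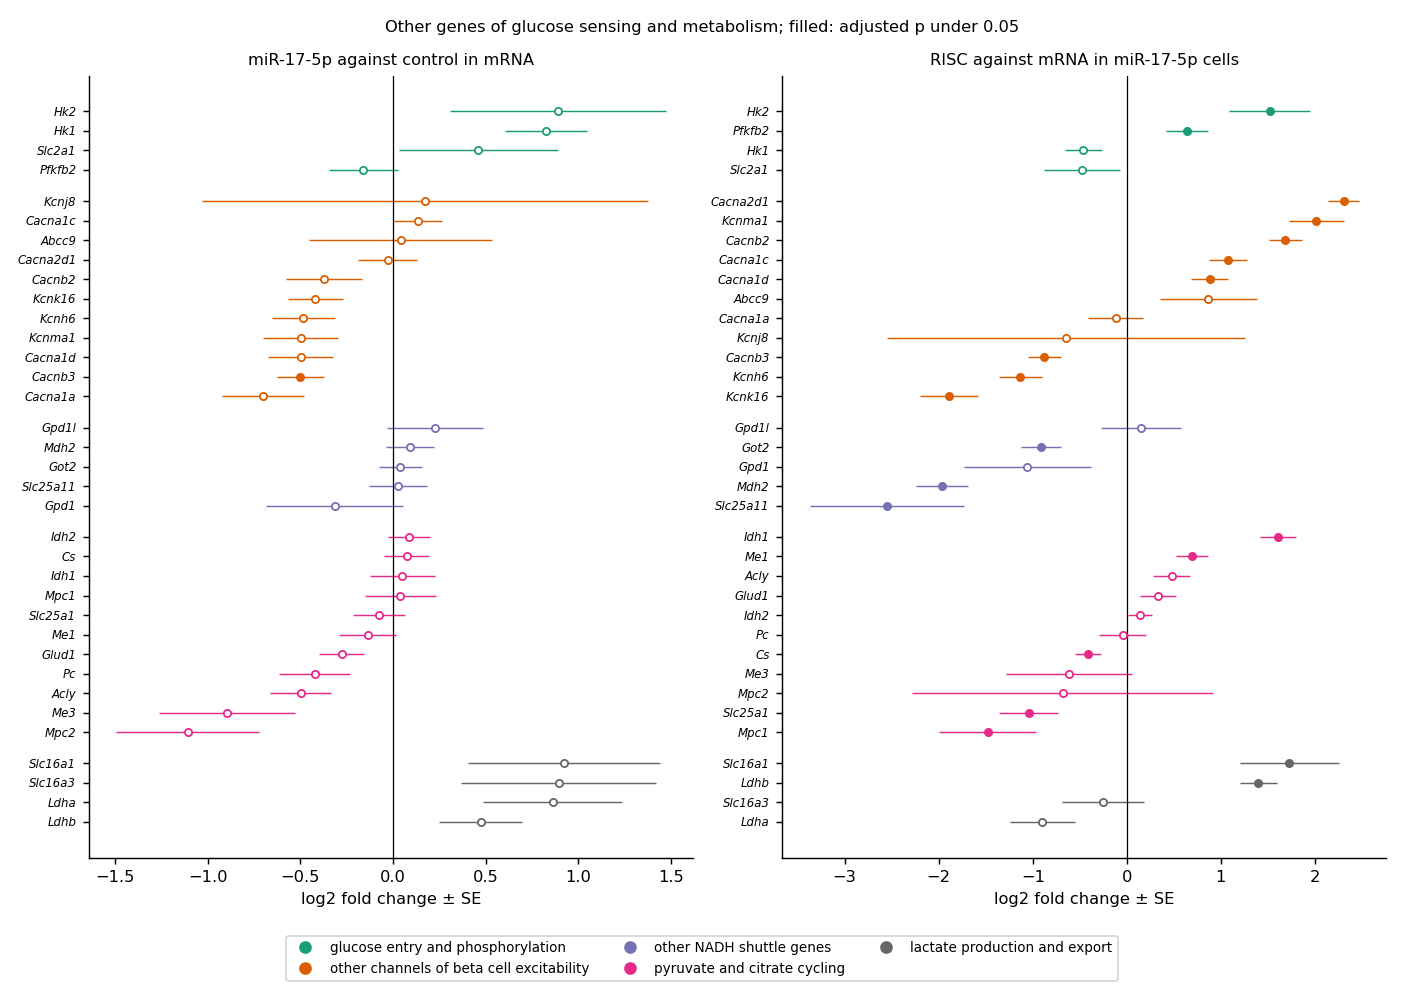
Log2 fold change ± SE from edgeR (horizontal axes) of other pathway genes, for miR-17-5p against control in mRNA (left) and RISC against mRNA in miR-17-5p cells (right), with a colour for each list. Filled points passed an adjusted p of 0.05: on the left only Cacnb3 (-0.50), on the right genes on both sides of 0, with Cacna2d1 (2.30) highest and Slc25a11 (-2.55) lowest.

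To describe which genes moved most like each of the 6 across the 8 mRNA libraries, genes were ranked by the SD of their log2 ratio to it, over 6093 genes whose mean log2 CPM was 4 or more. For Kcnj11 the nearest were Nfasc, a neuronal adhesion molecule (SD 0.05), Gnas, the stimulatory G protein subunit (0.08), and Cbx6, a Polycomb protein (0.08), and Abcc8 ranked 34th at 0.12. For Abcc8 they were Cdh1, E-cadherin (0.05), Ftsjd2 (0.06) and Gde1 (0.07). The median over all genes was 0.38 for Kcnj11 and 0.35 for Abcc8.

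For Slc2a2 the nearest genes were Pcsk1, a proinsulin-processing protease (SD 0.07), Kifap3 (0.11) and Lss (0.12), and Mdh1 ranked 40th at 0.16. For Mdh1 they were Ins1 (0.12), Pam (0.12) and Tspan7 (0.12), with Slc2a2 20th, though reads of Ins1 and its near copy Ins2 may be split between them. For Gpd2 they were Lman1 (0.10), Crebbp (0.12) and Trerf1 (0.13). Got1 had Ext2 (0.06), Ddb1 (0.07) and Eif4a1 (0.07) as its nearest, and the other 5 genes ranked 4361st to 4997th of 6093 for it. These likenesses describe 8 libraries that share their preparation.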

How the data were processed

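Per the submitters' processing notes, the authors used TopHat2 2.0.10, Bowtie2 and HTSeq with the genome build rn5, and DESeq and edgeR are also named. Other versions were left unstated: not given in the sources used here. Deposited values were whole-number counts per gene for 15 libraries. Reads were single-end without strand, per the labels' protocols, so a gene and its antisense partner cannot be separated. Alignments not unique (15.0% to 31.2%) and ambiguous (0.151% to 0.454%) stayed out of library sizes. No libraries of a group were identical or agreed within sampling noise (chi-square per degree of freedom 7.08 to 327).

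Groups came from the titles. The main test was that of edgeR 4.0.16 in R 4.3.3 (TMM, filterByExpr, robust quasi-likelihood F-tests, two-sided), adjusted by Benjamini-Hochberg over all genes tested, called under 0.05; SE is the absolute log2 fold change over the root of F. Each comparison within mRNA, within RISC or within a condition used its own libraries, and the difference used all 15. Scripts were tested on simulated counts whose spread was narrower than in any comparison that uses RISC libraries. That test therefore gives no error rate for those comparisons. Count ratios, with 0.5 added to each count, were tested by exact permutation in SciPy 1.17.1; CPM had 0.5 added before logs. Symbols matched RefSeq GRCr8 for 14175 of 17055 genes and all 6 members, for names and neighbours only. Members and lists were chosen with earlier results of these data known. Pathway genes are named if called, with up to 2 others per list of highest mean level; Pc was picked with its value known. Some genes that enter the list counts are not reported here by name. Alternatives were DESeq2 size factors, no filter, DESeq2 1.42.0 (Wald), limma 3.58.1 (voom with quality weights), a replicate block, a larger count added to ratios, and each library left out. Intervals of counting error and floors cover counting error only.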

Additional observations from a re-analysis of the deposited data

Results flagged for a closer look

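In 3 of 16 groups of values 1 library stood far from the others of its group, where chance flags about 1 in 20 such groups. The 3 are not independent, since all of them involve Mdh1 and the first and the second share its value in 1 library. The 16 groups also reuse the same libraries and genes, so 3 of 16 does not show an excess over that rate. Mdh1 had 234 CPM in miR-17-5p mRNA library 1, and 133 to 142 CPM in the other 4 miR-17-5p mRNA libraries. The log2 ratio of Mdh1 to Got1 counts was 2.22 in the same library, and 1.14 to 1.41 in the other 4. In RISC the log2 ratio of Mdh1 to Got1 was 1.01 in miR-17-5p library 2, and 1.77 to 1.88 in the other 3 miR-17-5p RISC libraries.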

How the results depend on the processing

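Genes called between miR-17-5p and control cells in mRNA, 429, became 887 with DESeq2's Wald test and 1017 with limma-voom, and 85 to 816 with 1 library left out (85 without control 3, 107 without control 2, 189, 237 and 249 without miR-17-5p 4, 5 and 6, and 816 without miR-17-5p 1). The share of calls that were higher, 80.2%, was 69.7% with the Wald test and 57.4% with limma-voom. Of the 6 genes 2 were then called with the Wald test and 3 with limma-voom, and 0 to 3 with 1 library left out. In RISC the 35 genes became 1305 with the Wald test and 19 with limma-voom, and 0 to 1225 with 1 library left out (0 without miR-17-5p 2, 5 or 6, 122 without control 3, 548 without miR-17-5p 4 and 1225 without control 2), with 0 to 1 of the 6 called. For the difference of both, limma-voom called 0 of 11418 genes, and leaving out 1 library gave 1203 to 2853 (2412 without control RISC 1 and 2853 without control RISC 2), with 0 to 1 of the 6 called. In control cells the Wald test called 4 of the 6 between RISC and mRNA, and with 1 library left out 1255 to 4540 genes (1255 and 1436 without control mRNA 1 and 2, 4540 without control RISC 2) and 1 to 4 of the 6 were called. RISC against mRNA in miR-17-5p cells kept 4 to 5 of the 6 under every alternative run. DESeq2 size factors moved the median of all genes by -0.13 in the difference, -0.18 in control RISC against mRNA and -0.12 in miR-17-5p RISC against mRNA. Limma-voom moved it by 1.13, -2.20 and -0.21 in these 3 comparisons and by 1.62 in RISC, and no filter by -0.72 in control RISC against mRNA, -0.29 in miR-17-5p RISC against mRNA and 0.28 in RISC. In the difference DESeq2 size factors gave Kcnj11 -0.0574 and Abcc8 -0.106, and the Wald test gave -0.0569 and -0.106. Leaving out 1 library turned the sign of Gpd2 in RISC (-0.768 to 0.0851), of the difference for Abcc8 (-0.0141 to 0.409), Slc2a2 (-0.661 to 0.0757) and Gpd2 (-0.354 to 0.599), of Slc2a2 in miR-17-5p RISC against mRNA (-0.0105 to 0.331) and of the Kcnj11 to Abcc8 ratio in RISC (-0.440 to 0.229). Relative to the beta cell factors, where leaving out 1 library was chosen after seeing the data, it turned Kcnj11 in mRNA (-0.0182 to 0.250), and Abcc8 (-0.545 to 0.357, without control 3) and Gpd2 (-0.375 to 0.0605, without miR-17-5p 2) in RISC. The causes were not tested.

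Deviations from the group means had correlations of -0.192 and -0.0657 between same-numbered miR-17-5p and control mRNA libraries. Between same-numbered RISC and mRNA libraries they were -0.0132 to 0.0489. Differently numbered libraries had -0.0998 to 0.171 within mRNA and -0.0609 to 0.0739 between RISC and mRNA. These values do not settle whether the replicate number pairs libraries, and the main tests did not use that number. With that number as a replicate block, 0 genes and 0 of the 6 were called in mRNA, 30 genes in the difference, and 338 genes and 0 of the 6 in control RISC against mRNA, where the share of calls that were higher was 50.6% in place of 21.1%. The block moved the median of all genes by 1.07 in the difference, -1.69 in control RISC against mRNA and -0.22 in miR-17-5p RISC against mRNA. In mRNA it gave log2 fold changes of -0.50 for Kcnj11 (edgeR adjusted p = 0.907), -0.0034 for Slc2a2 and -0.05 for Mdh1. There miR-17-5p and control libraries share only numbers 1 and 2, so the blocked effect rests on those libraries alone. Its 0 calls therefore do not say whether the genes differed. Within RISC no paired analysis was possible because miR-17-5p and control libraries share only number 2. Control RISC libraries, with many genes at 0 to 3 counts, limit every comparison of Got1 that uses them. Control RISC library 1, with 0 Got1 counts, held 13420403 counts in all, and control RISC library 3, with 1, held 4185123.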
